A study of Mus musculus with 3 samples.

Results

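Notch signalling passes between touching cells, and 10 genes of the pathway were followed in mesangial cells, the contractile pericyte-like cells between the capillaries of the kidney glomerulus. They were the 4 receptor genes Notch1, Notch2, Notch3 and Notch4, the 3 ligand genes Jag1, Dll1 and Dll4, and the 3 target genes Hes1, Hey1 and Heyl. All 10 were measured, each by 1 probe set with exactly 1 gene symbol, out of 19938 genes that have such a probe set. Of these, 1253 belong to gene families used below as a silent background, and the other 18685 are called the named genes. The 10 were picked as pathway members, and the rule that picks them uses no measured value.

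A Notch receptor is cut by ADAM and gamma-secretase proteases once it binds a Jagged or Delta-like ligand on a neighbouring cell. The freed intracellular domain joins the DNA-binding protein RBPJ and Mastermind co-activators in the nucleus and turns on genes of repressive basic helix-loop-helix factors, among them Hes1, Hey1 and Heyl. In blood vessels Notch3 is known as a receptor of mural cells (pericytes and smooth muscle), whereas Notch4 and Dll4 are known mainly from endothelium.

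The samples formed 1 group of 3, called samples 1, 2 and 3. Each was made from the cortex of 1 kidney of an adult male CD-1 mouse carrying Tg(Meis1-EGFP)FO156Gsat, a bacterial artificial chromosome that places green fluorescent protein under Meis1 regulatory sequence, and no sample was pooled. Glomeruli were held back on a sieve after collagenase, dispersed with trypsin and sorted by flow cytometry, and the labels name the tissue as glomerular and extraglomerular mesangium. The samples analysed include no other genotype, treatment or cell population, so no test between conditions was possible. Whether the kidneys belonged to different mice is not given in the labels, and the variation between samples may in part be technical.

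Values are log2 probe set signals as the authors deposited them, given per sample and as mean ± SD (n = 3). A gene was called above background when it exceeded a silent-gene threshold in each of the 3 samples. The threshold is the 95th percentile of probe sets for keratin-associated proteins and for trace amine, vomeronasal and olfactory receptors, families largely silent outside sensory tissue and hair, taken array by array. It was 7.48, 7.46 and 7.40 in samples 1, 2 and 3, and 58.0% of all named genes passed it. Raising it by 1 left 32.7% of named genes above it. Of the 1253 silent genes themselves 59 (4.71%) passed the threshold and 12 (0.958%) the raised one. The margin of a gene below is its value minus the threshold of the same array. Probe sets bind with different strength, so values of different genes are not ranked by amount.

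Identical values on several arrays were common in the deposited table. A single value was repeated across the 3 samples for 40.2% of all 35557 probe sets and for 51.1% of the named genes. Among the 10 Notch genes 4 were repeated in this way, 4 shared a value between a pair of samples and 2 had 3 different values. An SD of 0 is therefore no sign of a precise measurement.

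Of the 10 Notch genes 9 passed the silent-gene threshold in every sample, against 58.0% of named genes. Dll1 was the exception, below it in every sample. At the raised threshold 5 of the 10 passed, namely Notch1, Notch3, Jag1, Hes1 and Heyl, against 32.7% of named genes. The median of the lowest margins was 0.97 for the 10 genes and 0.29 for all named genes. Hey1 and Dll4 sat just inside the threshold and Dll1 just outside it, as given below for each.

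**Figure D1:**
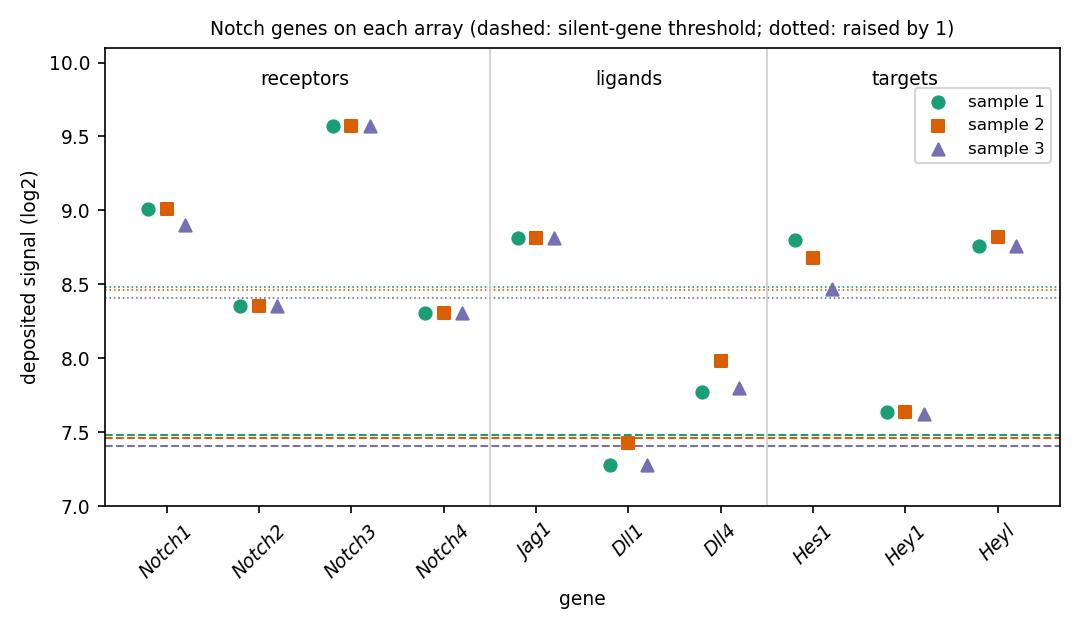
Deposited log2 signal (vertical axis) of the 10 Notch genes (horizontal axis, grouped as receptors, ligands and targets) in samples 1, 2 and 3, with the silent-gene threshold of each array as a dashed line and the threshold raised by 1 as a dotted line in the colour of the sample. Each point is read against the lines of its own sample only. Read so, Dll1 lies under the dashed line in each sample (7.28 to 7.42), and Notch1, Notch3, Jag1, Hes1 and Heyl lie over the dotted line.

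All 4 receptor genes lay above the threshold. Notch3, the mural cell receptor, had 9.57 in each of samples 1, 2 and 3. Its lowest margin was 2.09. Notch3 thus cleared the raised threshold in every sample. Its value was among those repeated across the 3 samples, so the lack of spread is no sign of precision.

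Notch1, the receptor with the broadest known use across tissues, had 9.01, 9.01 and 8.90 in samples 1, 2 and 3 (8.97 ± 0.06). Sample 3 was the low one, by 0.10, and still lay 1.50 above its threshold. Notch2, the receptor known from nephron formation and from smooth muscle, had 8.35 in all 3 samples. Notch4, known mainly from endothelium, had 8.31 in all 3 samples. Notch2 and Notch4 passed the threshold by at least 0.87 and 0.83, and neither passed the raised one.

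Notch3 and Notch4 are set side by side below because the mural and the endothelial receptor gene differ in the start region that RefSeq (GRCm38.p6) gives for them. Each window covers 250 bases before and 50 after the annotated start, 5′ to 3′ on the gene's strand, and capitals mark the GC box GGGCGG or its reverse complement CCGCCC. The Notch3 window lies at chr17:32166841-32167140 on the minus strand and the Notch4 window at chr17:34564045-34564344 on the plus strand.
Notch3: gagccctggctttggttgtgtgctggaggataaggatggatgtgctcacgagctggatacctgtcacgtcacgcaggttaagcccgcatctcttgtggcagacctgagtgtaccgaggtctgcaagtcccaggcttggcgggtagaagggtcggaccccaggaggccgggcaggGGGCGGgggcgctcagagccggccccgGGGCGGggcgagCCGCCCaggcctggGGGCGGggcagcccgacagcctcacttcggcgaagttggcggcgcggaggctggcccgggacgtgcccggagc
Notch4: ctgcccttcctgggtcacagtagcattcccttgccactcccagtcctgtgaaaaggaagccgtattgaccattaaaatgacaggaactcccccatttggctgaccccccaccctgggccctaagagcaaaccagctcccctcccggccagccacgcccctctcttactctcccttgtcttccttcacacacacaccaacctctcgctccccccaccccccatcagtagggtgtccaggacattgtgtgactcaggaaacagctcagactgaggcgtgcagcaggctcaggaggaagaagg

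The Notch3 window held 4 GC boxes and the Notch4 window none. The ratio of observed to expected CpG was 0.706 for Notch3 and 0.214 for Notch4, with a median of 0.384 over all 32851 windows of this length. A GC box on either strand stood in 35.7% of these windows, which were counted whether or not the gene was measured. Counting only the first listed window of each named gene, 7774 genes had a GC box and 6775 had none. The 35.7% is therefore not the share for measured genes. Notch1 had 5, Notch2 7 and Dll4 2, whereas the Jag1 window and both Dll1 windows had none. Across the named genes with a window, taking the first listed window of a gene, 72.4% of the 7774 with a GC box and 45.3% of the 6775 without one lay above the silent-gene threshold. This is a description over genes, which are not independent, and a match of these letters does not show that a factor binds there. Notch3, with GC boxes, was above the threshold in these cells, and so were Notch4 and Jag1, without them.

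The core of the RBPJ recognition sequence, TGGGAA, or its reverse complement TTCCCA, was in none of the 8 windows of the 7 Notch genes that have one, against 25.6% of all windows. This says only that these letters are not in these windows. Hes1, Hey1 and Heyl had no window in the table.

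The ligand genes divided. Jag1, whose product is the Jagged ligand of vessel walls, had 8.81 in each of samples 1, 2 and 3, and its lowest margin was 1.33. Dll4, the Delta-like ligand known from arterial and sprouting endothelium, had 7.77, 7.98 and 7.80 (7.85 ± 0.11). Sample 2 was the high one, and the margin was 0.29 in sample 1, so Dll4 lay above the threshold in each sample but close to background. The RefSeq table also gives Dll4 as a synonym of the long non-coding RNA gene Gm14207, which overlaps its start, and the probe set was named through the Dll4 gene number.

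Dll1, the Delta-like ligand known from somite and nephron patterning, had 7.28, 7.42 and 7.28 in samples 1, 2 and 3 (7.33 ± 0.08). It was the only Notch gene below the threshold, by 0.20 in sample 1, with sample 2 the nearest at 0.04 below. At the 90th percentile threshold, which 68.8% of named genes passed, Dll1 lay above it in all 3 samples with a lowest margin of 0.20.

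All 3 target genes lay above the threshold. Hes1, a repressor that many Notch-receiving cells induce, had 8.80, 8.68 and 8.47 in samples 1, 2 and 3 (8.65 ± 0.17). This was the largest spread among the 10 genes, with sample 1 high and sample 3 low, and in sample 3 Hes1 passed the raised threshold by only 0.07.

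Heyl, a target known from mural cells, had 8.76, 8.82 and 8.76 (8.78 ± 0.04), with sample 2 slightly high. Its lowest margin was 1.28. Hey1, a target known from endothelium and developing kidney, had 7.64, 7.64 and 7.63 (7.63 ± 0.01), and its lowest margin was 0.16. Hes1 and Heyl therefore cleared the raised threshold in each sample and Hey1 did not.

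**Figure D2:**
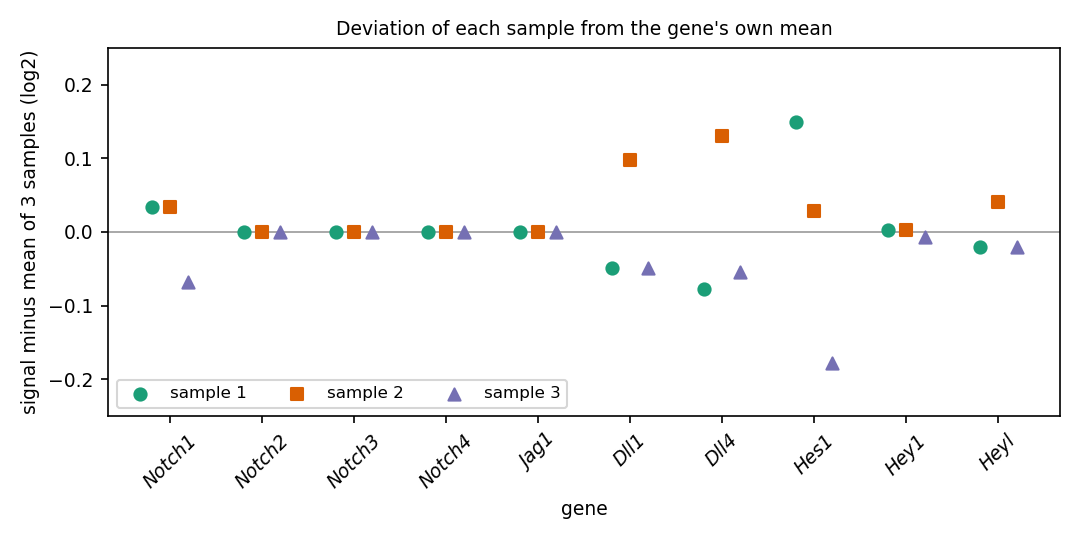
Signal of each sample minus the gene's own mean over the 3 samples (vertical axis, log2) for the 10 Notch genes (horizontal axis). Notch2, Notch3, Notch4 and Jag1 sit at 0 in all samples, and Hes1 has the widest range, 0.33 between samples 1 and 3.

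Ranges over the 3 samples were small. The median range of the 10 genes was 0.04, against 0.03 for all named genes above the threshold, and the widest after Hes1 was that of Dll4 at 0.21. The 3 named genes above the threshold whose centred profile lay nearest to that of Hes1, out of 10841 searched over 3 samples, were 4930470H14Rik, Hexdc and Cwc25, at Euclidean distances of 0.02 each. Cwc25, for a splicing factor, had 8.79, 8.65 and 8.48 in samples 1, 2 and 3. With 3 samples a close match is easily found among so many genes, and the likeness is given as a description.

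The tubule gene Umod, for uromodulin, had its high and low samples in the same places as Hes1, with 9.51, 9.18 and 8.22 in samples 1, 2 and 3. This order of samples was not particular to tubule genes, since the endothelial gene Tek had it too. Over the whole list of 10 tubule markers 6 (60.0%) lay above the threshold, close to the 58.0% of named genes. None lay above the raised one in every sample, against 32.7% of named genes, although Umod did in samples 1 and 2. The mean of the list was 7.60, 7.67 and 7.52. The phosphate transporter gene Slc34a1 had 8.15 ± 0.16 and the endocytic receptor gene Cubn 6.21. Calb1, a distal tubule gene, had 7.72, 8.66 and 8.49, and it did not follow the order of Umod and Hes1. It was above the raised threshold in samples 2 and 3. Whether tubule RNA had a part in the Hes1 values was not tested. In RNA of a sorted population, fewer cells of a type and less RNA per cell cannot be told apart.

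The sorted cells carried the defining mesangial markers. All 10 mesangial markers lay above the raised threshold, against 32.7% of named genes. Itga8, for the integrin subunit that anchors mesangial cells, had 12.96 ± 0.01 and the PDGF receptor gene Pdgfrb 12.03 ± 0.06. In that list the growth factor gene Ptn at 13.10 ± 0.12 and the proteoglycan gene Cspg4 at 9.41 ± 0.04 had the extreme means. Of 5 smooth muscle markers 4 (80.0%) lay above the threshold and also above the raised one, against 58.0% and 32.7% of named genes. Among the 4 were Acta2 at 10.71 ± 0.25 and Myh11 at 10.44 ± 0.25, while Cnn1 at 7.46 ± 0.13 did not pass on all arrays. Of the renin cell list the connexin gene Gja5, at 12.88 ± 0.07, was measured, and Ren1 and Akr1b7 were not analysed here. The leukocyte markers Ptprc at 5.95 and Adgre1 at 5.56 were below the threshold in each sample. Of the 10 genes of that list 4 (40.0%) passed the threshold, against 58.0% of named genes. Means in the list went from 5.19 ± 0.01 for Cd79a to 8.03 ± 0.00 for Cx3cr1.

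Endothelial markers bear on Notch4, Dll4 and Hey1, which endothelium is also known to use. Of 18 endothelial markers 16 lay above the threshold and 9 above the raised one, against 58.0% and 32.7% of named genes. Of the 10 Notch genes 9 passed the threshold and 5 the raised one, so the endothelial list had similar shares. The mean of the endothelial list was 8.77, 8.75 and 8.82 in samples 1, 2 and 3. The defining genes Pecam1 at 7.61 ± 0.05, Cdh5 at 7.66 ± 0.05 and Kdr at 7.57 had lowest margins of 0.07, 0.13 and 0.09. The lowest margins of Notch4, Dll4 and Hey1 were 0.83, 0.29 and 0.16. The list was divided, since Eng at 11.17 ± 0.17, Tek at 10.78 ± 0.12, Ehd3 at 10.42 ± 0.24, Emcn at 10.38 ± 0.19, Plvap at 9.35 ± 0.03, Ptprb at 9.28 ± 0.04, Flt1 at 8.82 ± 0.18 and Esam at 8.54 ± 0.04 passed the raised threshold. Cd34 did so too, at 11.99 ± 0.00, and Sox17, an arterial factor, was below the threshold at 6.58. The part of endothelial RNA in the values of these 3 Notch genes was not tested. Of 7 measured podocyte markers 4 (57.1%) passed the threshold, close to the 58.0% of named genes. The slit diaphragm gene Nphs1, at 7.39 ± 0.07, was above the threshold in sample 3 alone. Means in that list went from 6.75 ± 0.08 for Ptpro, below the threshold, to 11.21 for the adaptor gene Cd2ap. Of 4 parietal epithelial markers 1 passed, Pax8 at 7.56, while Cldn1 had 7.69, 6.67 and 7.68 in samples 1, 2 and 3.

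**Figure D3:**
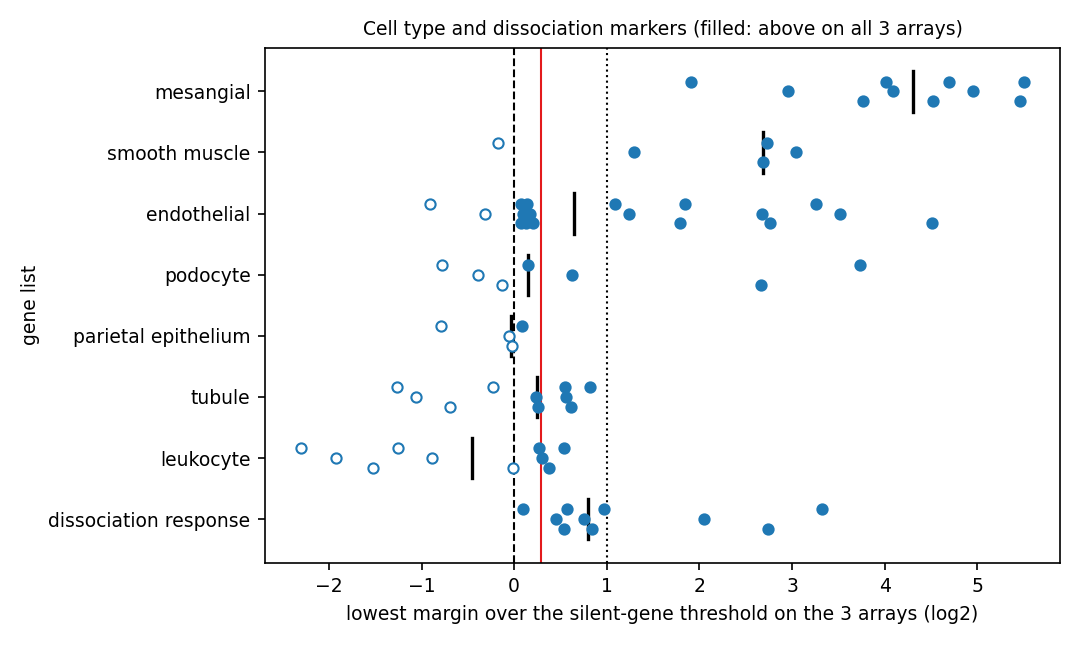
Lowest margin over the silent-gene threshold on the 3 arrays (horizontal axis, log2) for each measured marker, by list (vertical axis). The dashed line is the threshold, the dotted line the threshold raised by 1, the red line the median of all named genes (0.29) and each black bar a list median. All 10 mesangial markers lie to the right of the dotted line, and the parietal epithelium, tubule and leukocyte lists have no gene beyond it.

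Beyond the 10 genes, 76 other pathway genes were measured, and 65 of them (85.5%) lay above the threshold, against 58.0% of named genes. Above the raised threshold lay 45 (59.2%), against 32.7%. The median lowest margin was 1.28. The median for all named genes was 0.29, as above. Cdkn1a lacked a probe set with a single symbol and was not analysed here.

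The shares of other ligand-type genes and of glycosylation genes above the threshold lay on either side of the 58.0% of named genes. Of 6 other ligand-type genes 3 lay above the threshold, which were the non-canonical ligand genes Dlk1 at 8.02 and Dlk2 at 8.35 and the vascular gene Egfl7 at 8.91. Jag2 at 7.40, Dll3 at 6.96 and Dner at 6.84 were below it in each sample. All 5 genes of ligand ubiquitination passed, with the ubiquitin ligase genes Mib1 at 9.44, Neurl1b at 8.59 and Neurl1a at 7.85 ± 0.03, and a second probe set of Neurl1b was below the threshold at 7.26. Of 7 glycosylation genes 5 passed, among them the glucosyltransferase gene Poglut1 at 9.09 and Eogt at 8.96. The Fringe genes split, with Rfng at 8.33 above the threshold and Lfng at 6.75 and Mfng at 7.06 below it. Fringe proteins add sugars that alter which ligands a receptor answers to.

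The protease and nuclear parts of the pathway were above the threshold throughout. All 9 measured protease genes passed, against 58.0% of named genes, and 7 of them passed the raised threshold, against 32.7%. The gamma-secretase subunit gene Psenen had 10.47, 11.06 and 10.96 in samples 1, 2 and 3 (10.83 ± 0.31), with sample 1 the low one. The presenilin gene Psen2 had 10.01 ± 0.10, and Aph1b, for another subunit, had 7.81.

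All 10 nuclear activator genes passed the threshold and 8 the raised one, against 58.0% and 32.7% of named genes. The histone acetyltransferase gene Crebbp had 11.02 and the co-activator gene Snw1 10.92. Rbpj had 10.34 in each sample, but a second probe set for it was at 6.02, below the threshold, so its call rests on the probe set with the higher mean. Of 9 pathway genes with several probe sets, Rbpj and Neurl1b were the 2 whose sets fell on both sides of the threshold. Rbpjl, an RBPJ relative of the pancreas, had 7.49, only 0.01 above the threshold of sample 1. Of the co-repressors all 14 measured genes passed and 13 passed the raised threshold, against the same 58.0% and 32.7%. The histone deacetylase genes Hdac2 and Hdac1 had 11.54 ± 0.06 and 11.07 ± 0.00, and Tle4 had 8.26.

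Of 12 genes of receptor turnover and inhibition 10 (83.3%) passed, against 58.0% of named genes. The ubiquitin ligase gene Itch had 11.21 and Fbxw7, whose product marks the intracellular domain for destruction, 10.11 ± 0.14. Nrarp, a feedback inhibitor that Notch itself induces, had 7.11, 7.22 and 6.93 in samples 1, 2 and 3 (7.09 ± 0.15) and was below the threshold in each. Numbl at 7.39 was below it as well.

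Of the 7 other Hes and Hey genes measured 3 (42.9%) passed on all arrays, against 58.0% of named genes, a count too small to set the family apart. They were Hes5 at 8.54, Hes6 at 8.14 and Hes7 at 7.68 ± 0.03. Hey2, the Hey gene of arteries and heart, had 6.97 ± 0.04 and Helt had 6.48, both below the threshold in each sample. Hes2 lay above it in samples 1 and 3 and 0.01 below it in sample 2.

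Genes outside the Hes and Hey family that have been reported as Notch targets were all above the threshold. All 6 measured passed, against 58.0% of named genes, and 5 passed the raised threshold, against 32.7%. Pdgfrb, reported as a Notch target in vascular smooth muscle, had 12.03 ± 0.06, and Efnb2, an arterial guidance ligand, 11.40 ± 0.01. Myc, a target in lymphoid cells, had 7.83 ± 0.05 and was the one not above the raised threshold. Pdgfrb, Acta2 and Myh11 also stand in the mesangial and smooth muscle lists, so they are counted in both places. As markers of the sorted cells they say nothing here on Notch activity. Whether Notch had a part in the values of the 6 genes was not tested.

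**Figure D4:**
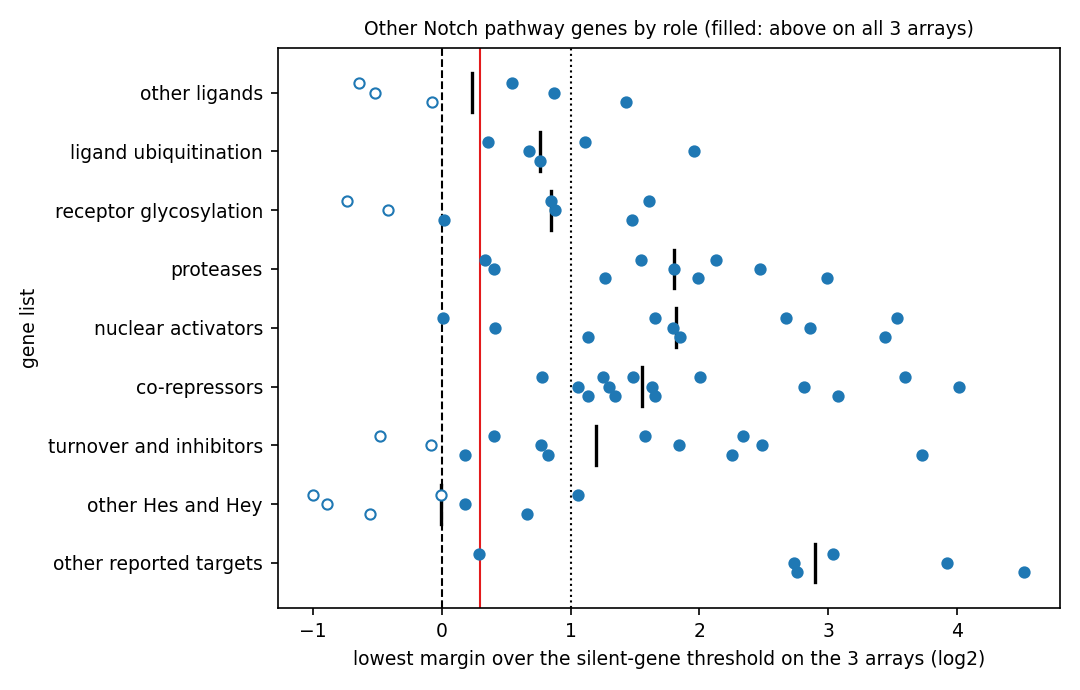
Lowest margin over the silent-gene threshold on the 3 arrays (horizontal axis, log2) for each of the 76 other pathway genes, by role (vertical axis). Lines are as in the plot of the marker lists, filled points lie above the threshold on all 3 arrays and open points do not. Proteases, nuclear activators and co-repressors have no open point, and the other Hes and Hey genes have 4 among 7.

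The dissociation response list includes immediate early genes that enzyme treatment is known to induce. All 10 of its genes lay above the threshold, against 58.0% of named genes, and 3 above the raised one, against 32.7%. The phosphatase gene Dusp1 had 10.91 ± 0.12 and Ier2 7.58. Hes1 is itself known to respond quickly to stimuli. The list mean was 8.78, 8.74 and 8.80 in samples 1, 2 and 3, and its part in the Hes1 values was not tested.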

How the data were processed

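RNA of 3 samples was amplified with the WT-Ovation Pico system in 1 round and labelled with biotin, per the labels' protocols, and measured on 1 array per sample. The authors deposited log2 probe set signals, and the submitters' processing notes name Affymetrix Expression Console. How background was corrected and probes were summarised, and with which version, is not stated in those notes. Base 2 follows from the highest value of 14.39, which fits a scanner's range only in that base, and scale and centring beyond that are unknown. Array medians were 7.53, 7.56 and 7.54, and the values were used as deposited.

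The platform annotation listed 23410 of 35557 probe sets, 21789 with exactly 1 symbol and 1621 with several, and left 12147 unnamed. Symbols were updated by Entrez number through RefSeq GRCm38.p6 for 21698 probe sets, and 91 kept their own. Where a gene had several probe sets, that with the highest mean stood for it. Thresholds came from 1269 silent probe sets. How often the calls miss an expressed gene was not tested. Python 3.11.15, pandas 2.3.3, numpy 2.4.6 and matplotlib 3.10.9 were used.

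The members, lists, threshold and alternatives were chosen with earlier results of these data known. No test between conditions was run, since there was 1 group. All members are named, and of each pathway list the 2 genes with the highest means, the one with the lowest and any with an SD over 0.3. Of the marker lists the highest, the lowest and the defining genes are named. Dlk1, Jag2, Dll3, Rfng, Mfng, Rbpj, Numbl, Hes2, Hes7, Hey2, Calb1 and the endothelial genes Eng, Tek, Ehd3, Emcn, Plvap, Ptprb, Flt1 and Esam are named outside this rule, chosen after their values were seen. With only 3 arrays, every value has limited precision.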

Additional observations from a re-analysis of the deposited data

Results flagged for a closer look

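Signal appeared in probe sets that the account of the Notch genes does not use. The annotation gives 6 probe sets both the symbols Notch4 and Sympk, so none of them names a gene. The silent-gene threshold was passed in every sample by 4 of the 6, against 58.0% of named genes, a count too small to set them apart. Their means were 8.02 ± 0.19, 7.93 ± 0.20, 7.97 ± 0.13 and 8.03 ± 0.31. The remaining pair had the same values as each other, with a mean of 7.40 ± 0.11. In all 6 sample 1 was high and sample 3 low, whereas the probe set that carries Notch4 alone had 8.31 in each sample.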

How the results depend on the processing

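With the threshold raised by 1, 5 of 10 Notch genes and 32.7% of named genes were above it, against 9 and 58.0% at the threshold itself, because the raised threshold is stricter for every gene. Notch2, Notch4, Dll4 and Hey1 were lost, with lowest margins of -0.13, -0.17, -0.71 and -0.84. At the 90th percentile threshold all 10 Notch genes were above, Dll1 included. The count stayed at 9 of 10 with olfactory receptors alone. It was also 9 with the mean of the arrays, with the mean over probe sets and without each replicate in turn (9 to 9). These latter settings could not have changed it. Each Notch gene has 1 probe set and lay on the same side of the threshold on every array. The other pathway genes gave 45 above the raised threshold and 65 to 68 under the remaining alternatives, and the share of all named genes was 57.5% to 68.8% under those. The means of the Notch genes moved by at most 0.09 when a replicate was left out (from -0.07 to 0.09) and by at most 0.0012 after quantile normalization. No paired analysis was possible because there is only 1 group. Signal over background limits Hey1, Dll4 and Dll1, which lay within 0.3 of the threshold on at least 1 array.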
